A study of Mus musculus and Homo sapiens with 24 samples.

Results

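The genes described here are those whose RNA level in C2C12 cells on day 1 of differentiation lay outside the levels of both other days sampled, day 0 and day 6. C2C12 is an established mouse myoblast line that stops growing and fuses into multinucleate myotubes when differentiation is started. Each day was represented by 4 libraries of polyadenylated RNA, so 12 of the 24 libraries of the series entered this comparison. The other 12 come from LHCN-M2, a human immortalised myoblast line sampled at days 0, 1 and 12, and serve below only as separate values beside those of C2C12. All libraries of both lines carry the genotype label control and the cell type label skeletal myoblast. The labels name no treatment, transgene or agent for any day and do not give the culture medium. They also do not say whether the 4 libraries of a day came from separate cultures. If they did not, the spread that the p-values rest on is technical.

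Each level is in CPM, read counts scaled to a common library size, computed from the deposited read counts with normalised library sizes. For each gene the day 1 contrast was the log2 level at day 1 minus the mean of the log2 levels at day 0 and day 6. Of 56748 gene rows, 17065 had enough counts to be tested. Among those, the day 1 level lay above both other days in 4597 genes, below both in 4809 and between them in 7659. A peak gene is one whose day 1 level was higher than day 0 and higher than day 6, each with an adjusted p (edgeR quasi-likelihood test, Benjamini-Hochberg over all 17065 genes) under 0.05. A dip gene was lower than both by the same tests. The direction of each gene was read from the values that were tested, while the tests ran over all genes without selection. Both tests of a gene use the same 4 day 1 libraries and are not independent of each other.

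As background, myoblasts that are induced to differentiate leave the cell cycle, switch on the MyoD family factors and then assemble sarcomeres, so most muscle genes move in a single direction over time. A gene that is highest or lowest on the first day departs from that course. ATF4 is a transcription factor made when amino acids are short or protein folding is disturbed; its targets include amino acid synthesis enzymes, amino acid transporters and the aminoacyl-tRNA synthetases that load amino acids onto tRNA. Serum response factor (SRF) drives actin and smooth muscle contractile genes in many cells that spread and pull on their surroundings.

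Library totals ran from 32795699 to 43827517 counts. The first 2 principal components of log2 CPM held 57.8% and 16.4% of the variance. On the second component the 4 day 1 libraries lay between -52.5 and -49.5, apart from day 0 (35.04 to 43.04) and day 6 (9.22 to 15.7). Of the markers of myoblasts (Myod1, Myf5, Des, Cdh15, Msc, Itga7, Ncam1, Pax7, Chrna1), 8 of 9 were measured. Their summed level ran from 635 to 677 CPM (day 0), from 825 to 896 (day 1) and from 2414 to 2617 (day 6). Ncam1 did not follow the sum: it was a dip gene, with means of 152, 104 and 204 CPM at days 0, 1 and 6. The 7 fibroblast and matrix markers summed to 14196 to 15474 CPM at day 1, overlapping the 14393 to 16820 of day 0 and above the 10662 to 11138 of day 6. Smooth muscle markers summed to 2493 to 3190 CPM at day 1, against 1683 to 1828 for day 0 and 1399.6 to 1599 for day 6, nearly all of it Acta2, with Myh11 at 0.167 ± 0.123 CPM (SD, n = 4) on day 1. Immune markers summed to under 4 CPM in every library, and Adgre1 was at 0 in all 12. Endothelial markers summed to at most 1.48 CPM. Among the neural markers Rbfox3 and Sox10 were at 0, and Tubb3 was the 1 that passed the filter on low counts. The neural sum was 15.5 to 19.1, 91.3 to 107.5 and 261 to 281 CPM at days 0, 1 and 6. Nearly all of it was Tubb3, with means of 17.5, 96.5 and 268 CPM. Adipocyte markers summed to 139 to 159, 83.5 to 89.6 and 52.96 to 60.4 CPM at days 0, 1 and 6. In bulk RNA, fewer cells of a type and less RNA per cell cannot be told apart.

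Averaged over the other days, day 1 was higher in 4289 genes (25.1% of those tested) and lower in 4586 (26.9%). With the added condition that the day 1 mean lay beyond both days, 3254 genes (19.1%) were higher and 3338 (19.6%) lower. The stricter pair of tests left 1841 peak genes (10.8%) and 1861 dip genes (10.9%), and these are the members described from here on. The median difference from the nearer day was 0.42 on the log2 scale in peak genes (middle range 0.29 to 0.66) and -0.37 in dip genes (-0.59 to -0.26), so most departures were under 2-fold. At least 2-fold from both days were 187 peak genes (1.10% of genes tested) and 174 dip genes (1.02%), and at least 4-fold were 27 and 64. All 4 day 1 libraries lay above the other 8 libraries in 1664 genes (9.75%) and below them in 1571 (9.21%). Among peak genes 1551 (84.2%) were separated in this way, and among dip genes 1497 (80.4%).

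The levels of day 0 and day 6 themselves differed in most members. Of the peak genes, 826 ended lower at day 6 than at day 0, 277 ended higher and 738 did not pass the test of that difference. The dip genes divided the other way, with 671 higher at day 6, 384 lower and 806 not called. Protein-coding peak genes had a median gene model length of 6130 bases against 3812 in dip genes and 4446 in all genes tested. Processed pseudogenes, which can take reads from their parent genes, gave 8 peak and 53 dip genes among 1095 tested. Both are smaller shares than the 10.8% and 10.9% over all genes tested. At the border of the call, Slc11a1 was the last peak gene inside (larger adjusted p 0.0499) and Gm45632 the first outside (0.0500011). For the dip genes Acer3 (0.0499) was just inside and Nrbf2 (0.0503) just outside.

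**Figure D1:**
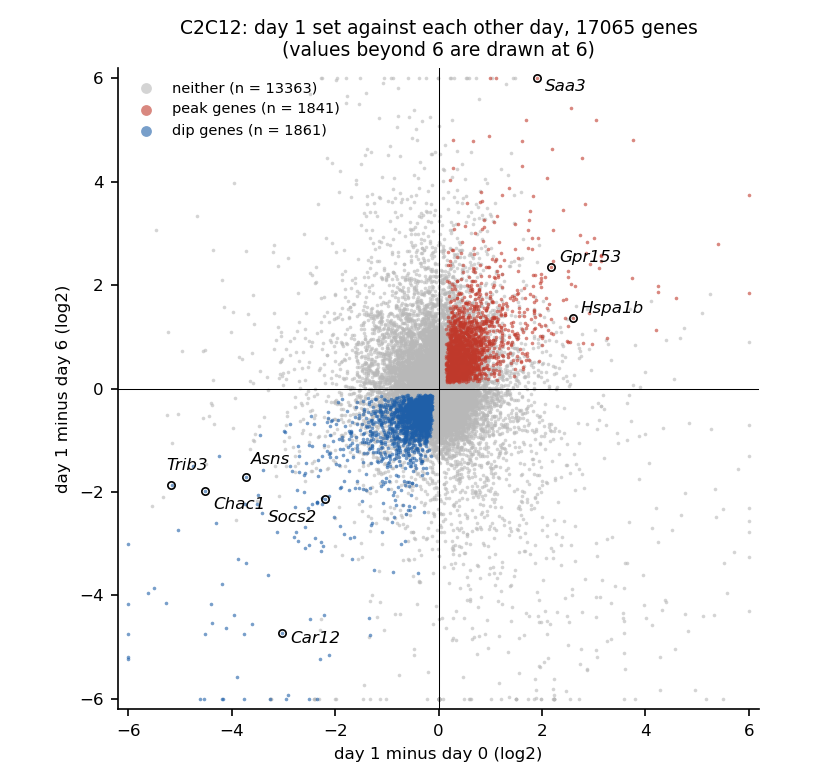
Each point is 1 of 17065 genes, placed by its log2 difference between day 1 and day 0 (horizontal axis) and between day 1 and day 6 (vertical axis), with 1841 peak genes in red, 1861 dip genes in blue and the rest in grey. Most members sit close to the origin, and the circled genes, among them Trib3 and Chac1 at the lower left and Gpr153 at the upper right, are far from both axes. Values beyond 6 are drawn at 6.

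Of 30 genes in the list of the ATF4 amino acid response, all measured, 23 were dip genes and 1 was a peak gene. The median contrast of the list was -1.46 on the log2 scale, against -0.02 over all genes tested. The list ranges from the factor itself to enzymes, transporters and secreted targets, and 21 of the 23 dips had no day 1 library within the range of the other days. The count of dip genes was 22 or 23 in each alternative of processing and with each library left out. Over all genes tested 10.8% were peak genes and 10.9% dip genes, the shares to set beside each list count below. Among all dip genes 80.4% had no such overlap, the share to set beside each count of dips without overlap.

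Atf4, the transcription factor that gives the list its name, was at 649, 625, 573 and 569 CPM in the day 0 libraries, 271, 234, 216 and 244 CPM in the day 1 libraries and 442, 482, 421 and 443 CPM in the day 6 libraries. No day 1 library reached the lowest library of another day. The log2 difference was -1.32 (SE 0.07) from day 0 and -0.89 (SE 0.06) from day 6, with a larger adjusted p of 1.79e-10. Ddit3, which encodes the stress factor CHOP, was at 86.996 ± 4.73, 20.5 ± 1.17 and 31.6 ± 2.54 CPM at days 0, 1 and 6 (mean ± SD, n = 4 libraries a day), a difference of -0.63 (SE 0.07) from the nearer day. Atf5, a related leucine zipper factor, was at 178 ± 7.05, 41.6 ± 4.64 and 68.9 ± 4.76 CPM, and Atf3, a repressor of the same family, at 14.4 ± 0.877, 5.45 ± 0.161 and 21.3 ± 0.503 CPM. Atf5 and Ddit3 ended day 6 below day 0, whereas Atf3 ended above it.

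Asns, which makes asparagine from aspartate, was at 634, 609.97, 600.4 and 581 CPM in the day 0 libraries, 54.5, 47.1, 40.3 and 41.7 CPM in the day 1 libraries and 139, 156, 153 and 151 CPM in the day 6 libraries. The day 1 values were separate from both other days, and day 6 recovered only a part of the day 0 level. The log2 difference of day 1 was -3.72 (SE 0.08) from day 0 and -1.71 (SE 0.07) from day 6 (larger adjusted p 5.47e-14). Trib3, a pseudokinase that is induced by ATF4 and feeds back on it, was at 144, 154, 130.4 and 124 CPM in the day 0 libraries, 4.07, 4.04, 2.601 and 4.71 CPM in the day 1 libraries and 13.2, 15.8, 14.1 and 13.2 CPM in the day 6 libraries. Its 4 day 1 libraries were far below all others, with a difference of -5.17 (SE 0.12) from day 0 and -1.87 (SE 0.12) from day 6. Chac1, an enzyme that degrades glutathione, was at 107, 114, 91.9 and 110.2 CPM in the day 0 libraries, 6.196, 3.99, 4.21 and 3.99 CPM in the day 1 libraries and 17.95, 19.6, 17.5 and 18.1 CPM in the day 6 libraries. All 4 day 1 values lay below the day 6 values, and replicate 1 was above the other 3 of its day. The difference was -4.52 (SE 0.12) from day 0 and -1.98 (SE 0.11) from day 6.

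The serine and 1-carbon enzymes followed the same order of days, with day 0 highest and day 1 lowest. Phgdh, which catalyses the first step of serine synthesis, was at 482, 469, 446 and 427 CPM in the day 0 libraries, 81.04, 77.6, 73.7 and 75.4 CPM in the day 1 libraries and 205, 226, 198 and 211 CPM in the day 6 libraries. Psph, which catalyses the last step, was at 150.5 ± 13.1, 20.6 ± 0.648 and 58.3 ± 4.79 CPM at days 0, 1 and 6, and Mthfd2, a mitochondrial folate enzyme, at 288 ± 13.8, 40.4 ± 6.33 and 122 ± 5.54 CPM. Their differences from day 6, the nearer day, were -1.45 (SE 0.06) for Phgdh, -1.50 (SE 0.07) for Psph and -1.60 (SE 0.08) for Mthfd2. Psat1 and Shmt2, the other enzymes of this branch on the list, were dip genes too.

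Among the secreted and surface members, Gdf15 and Fgf21 had this order of days, whereas Stc2 and Vldlr did not. Gdf15, a cytokine released by stressed cells, was at 23.6 ± 2.45, 5.97 ± 1.31 and 16.5 ± 1.07 CPM at days 0, 1 and 6. Fgf21, a hormone of fasting and mitochondrial stress, was at 5.13, 5.55, 5.31 and 4.06 CPM in the day 0 libraries, 0.134, 0.528, 0.04604 and 0.824 CPM in the day 1 libraries and 4.46, 4.45, 3.08 and 3.71 CPM in the day 6 libraries. It was scarce at all days, and the day 1 libraries were all below 1 CPM. Stc2, a secreted glycoprotein, was at 8.57 ± 0.343, 1.42 ± 0.435 and 9.07 ± 0.891 CPM, with days 0 and 6 close to each other. Vldlr, a lipoprotein receptor, was at 0.795 ± 0.186, 0.154 ± 0.121 and 58.9 ± 2.95 CPM and so had its lowest level at day 1 and by far its highest at day 6. Its difference was -2.35 (SE 0.32) from day 0 and -8.55 (SE 0.20) from day 6.

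**Figure D2:**
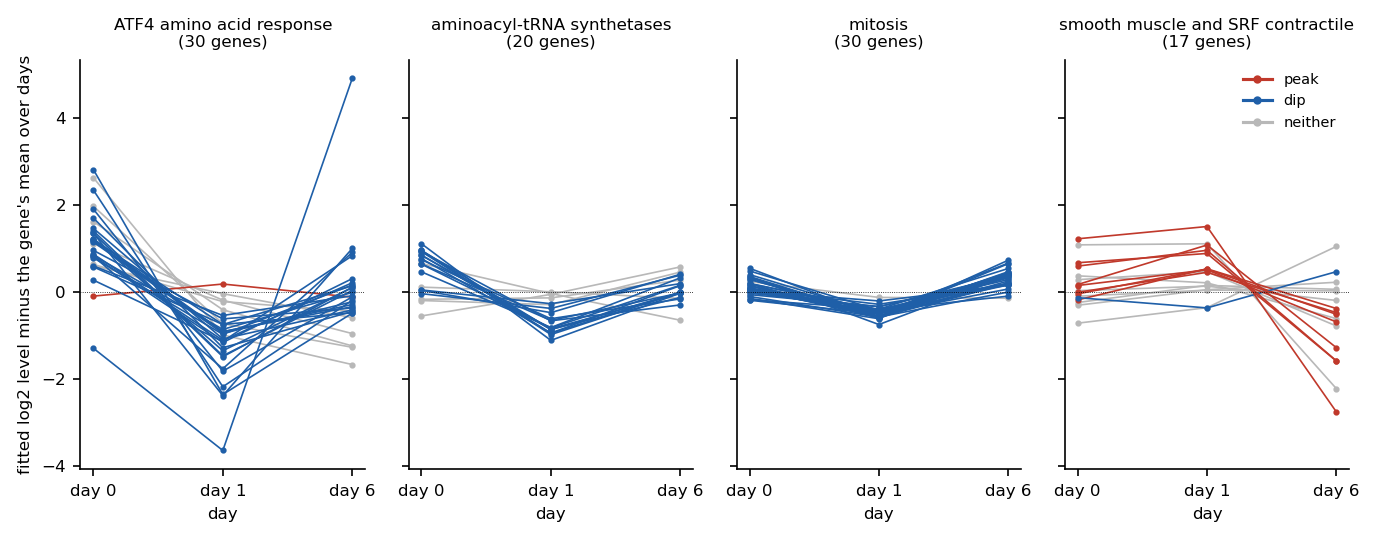
Lines join the fitted log2 levels of each gene at days 0, 1 and 6 after subtraction of the gene's own mean, for 4 gene lists, with peak genes in red, dip genes in blue and others in grey. Dip genes are 23 of 30 in the ATF4 list and 29 of 30 in the mitosis list, and peak genes are 8 of 17 in the smooth muscle list; the line that climbs furthest at day 6 in the ATF4 list is Vldlr.

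In 6 genes of the ATF4 list the minimum was at day 6. Cth, which makes cysteine, was at 123 ± 9.79, 10.01 ± 1.49 and 6.29 ± 1.18 CPM at days 0, 1 and 6, Pycr1, a proline synthesis enzyme, at 88.3 ± 4.41, 13.6 ± 0.517 and 9.35 ± 1.31 CPM, and Slc6a9, a glycine transporter, at 65.1 ± 7.79, 15.97 ± 1.75 and 8.96 ± 1.03 CPM. These genes fell from day 0 to day 1 and fell further to day 6, each with an adjusted p under 0.05 for both steps. Sesn2, Cebpb and Ddit4 had the same order of days. Slc38a2, which encodes a sodium-coupled neutral amino acid transporter, was the 1 peak gene of the list, at 738, 763, 736 and 774 CPM in the day 0 libraries, 934, 925, 860.2 and 932 CPM in the day 1 libraries and 754, 725, 724 and 762 CPM in the day 6 libraries. Its difference was small, 0.28 (SE 0.04) from day 0 and 0.30 (SE 0.04) from day 6 (larger adjusted p 2.13e-05).

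Of 20 cytosolic synthetase genes, 15 were dip genes and none a peak gene, and in all 15 the day 1 libraries lay below the other 8. The median contrast was -0.97. Nars, for asparagine, was at 728, 712, 756 and 687 CPM in the day 0 libraries, 214, 223, 210.5 and 233 CPM in the day 1 libraries and 451, 466, 483 and 474 CPM in the day 6 libraries. Tars, for threonine, was at 434 ± 15.02, 179 ± 5.61 and 394 ± 10.6 CPM at days 0, 1 and 6, and Iars, for isoleucine, at 335 ± 19.7, 122 ± 3.82 and 239.8 ± 4.54 CPM. Cars, for cysteine, showed the largest fall from day 0 of those named here, -2.22 (SE 0.06), and was at 250.01 ± 8.08, 53.6 ± 1.36 and 114 ± 7.28 CPM. Vars, Qars, Rars, Hars and Farsa were the 5 synthetase genes that did not meet both tests.

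The windows before 4 of the ATF4-list dip genes are shown because each holds a match to the C/EBP-ATF response element, written here as TGATGNAA. Windows are the 250 bases before the RefSeq transcription start on GRCm38.p6, read 5′ to 3′ on the gene's strand, and capitals mark the match on either strand. The match was present in 7 of 22 ATF4-list dip genes with a window (31.8%) and in 1056 of all 27025 genes in the promoter table (3.91%). None of the printed matches overlaps another motif that was searched. The windows lie at chr6:7693210-7693459 (minus strand) for Asns, chr2:119350992-119351241 (plus) for Chac1, chr1:191183334-191183583 (minus) for Atf3 and chr7:45615491-45615740 (minus) for Fgf21. A match describes the letters only.
Asns: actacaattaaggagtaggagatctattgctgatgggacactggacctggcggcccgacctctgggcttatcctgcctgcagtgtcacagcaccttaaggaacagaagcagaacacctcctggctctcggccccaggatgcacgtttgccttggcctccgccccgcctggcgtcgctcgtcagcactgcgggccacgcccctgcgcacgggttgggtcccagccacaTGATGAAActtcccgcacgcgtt
Chac1: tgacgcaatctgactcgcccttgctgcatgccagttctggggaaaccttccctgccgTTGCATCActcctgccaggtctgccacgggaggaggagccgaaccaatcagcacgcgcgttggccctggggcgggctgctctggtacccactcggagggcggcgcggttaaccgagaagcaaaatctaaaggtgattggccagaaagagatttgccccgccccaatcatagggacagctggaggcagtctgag
Atf3: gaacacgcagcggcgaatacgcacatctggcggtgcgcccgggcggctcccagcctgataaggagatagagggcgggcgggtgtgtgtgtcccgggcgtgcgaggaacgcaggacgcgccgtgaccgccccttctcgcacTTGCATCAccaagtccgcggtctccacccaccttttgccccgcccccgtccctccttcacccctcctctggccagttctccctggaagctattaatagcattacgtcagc
Fgf21: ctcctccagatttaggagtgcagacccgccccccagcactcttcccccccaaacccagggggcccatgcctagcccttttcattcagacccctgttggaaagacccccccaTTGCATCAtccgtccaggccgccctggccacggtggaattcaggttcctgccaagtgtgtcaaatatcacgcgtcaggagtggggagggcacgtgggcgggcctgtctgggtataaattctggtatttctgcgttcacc

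Mitosis genes had the most uniform dip of any list. Of 30 genes measured, 29 were dip genes, and the exception was Incenp, a subunit of the chromosomal passenger complex, at 96.2 ± 2.06, 74.8 ± 3.602 and 73.8 ± 3.09 CPM at days 0, 1 and 6. The day 1 values of Incenp were not separated from day 6 (adjusted p 0.775), though they were lower than day 0. The median contrast of the list was -0.73. At day 6 the list was back near its first level, with a median log2 difference between day 6 and day 0 of 0.20. The bulk RNA does not show which cells of the culture held these transcripts.

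Ndc80, a kinetochore protein that binds microtubules, was at 86.9, 73.8, 82.7 and 74.5 CPM in the day 0 libraries, 33.1, 41.1, 39.1 and 35.9 CPM in the day 1 libraries and 74.99, 77.5, 88.5 and 83.8 CPM in the day 6 libraries. The day 1 libraries lay below all others while days 0 and 6 overlapped. The difference was -1.09 (SE 0.08) from day 0 and -1.12 (SE 0.08) from day 6, with a larger adjusted p of 2.21e-10. Top2a, the topoisomerase that untangles sister chromosomes, was at 690.1, 704, 733 and 671 CPM in the day 0 libraries, 432, 470.1, 448 and 463 CPM in the day 1 libraries and 698, 655, 745 and 709 CPM in the day 6 libraries. Days 0 and 6 again shared a range and day 1 was lower in every library. Bub1b, a spindle checkpoint kinase, was at 150.5 ± 7.26, 82.1 ± 2.296 and 146 ± 4.73 CPM, and Ccnb2, a mitotic cyclin, at 135 ± 10.6, 72.6 ± 2.73 and 124 ± 8.64 CPM.

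Other members ended higher than they began. Tpx2, a spindle assembly factor, was at 240.1 ± 5.35, 139 ± 4.89 and 276 ± 11.5 CPM at days 0, 1 and 6, Ccnb1 at 167 ± 10.98, 109 ± 4.74 and 217 ± 5.84 CPM, and Cdk1, the kinase that drives entry into mitosis, at 140.2 ± 13.1, 120.5 ± 3.61 and 230.4 ± 15.9 CPM. For Cdk1 the step from day 0 was only -0.22 (SE 0.06), against -0.94 (SE 0.06) from day 6. The call of Cdk1 was lost without replicate 1 of day 0 (distance -0.11, larger adjusted p 0.0974), replicate 3 of day 1 (0.0653) or replicate 4 of day 1 (0.0503). Mki67, the proliferation marker, was at 328, 391.6, 360.4 and 398 CPM in the day 0 libraries, 289, 316, 325 and 331 CPM in the day 1 libraries and 434, 327, 441 and 415 CPM in the day 6 libraries. Its day 1 range overlapped both other days by 1 library each (larger adjusted p 0.0203). The call was lost when any of replicates 2 to 4 of day 0, any replicate of day 1, or replicate 3 or 4 of day 6 was left out.

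Promoter windows of 3 mitosis genes are shown because each holds several CCAAT boxes (letters CCAAT on either strand, in capitals). Of 25 mitosis dip genes with a window, 20 held at least 1 (80%), against 37.5% of all genes in the promoter table. The windows are chr9:70421555-70421804 (minus strand) for Ccnb2, chr10:69352913-69353162 (minus) for Cdk1 and chr11:99024190-99024439 (minus) for Top2a, on the same build.
Ccnb2: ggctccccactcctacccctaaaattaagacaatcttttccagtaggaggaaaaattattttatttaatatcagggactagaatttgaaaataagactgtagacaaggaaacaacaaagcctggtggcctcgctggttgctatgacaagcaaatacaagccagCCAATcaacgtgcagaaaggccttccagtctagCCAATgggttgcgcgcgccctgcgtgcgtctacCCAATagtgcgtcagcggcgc
Cdk1: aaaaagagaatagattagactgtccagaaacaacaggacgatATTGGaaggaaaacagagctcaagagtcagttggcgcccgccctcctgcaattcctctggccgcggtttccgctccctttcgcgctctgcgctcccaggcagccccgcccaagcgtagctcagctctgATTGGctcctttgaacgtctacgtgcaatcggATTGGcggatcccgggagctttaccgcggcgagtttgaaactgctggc
Top2a: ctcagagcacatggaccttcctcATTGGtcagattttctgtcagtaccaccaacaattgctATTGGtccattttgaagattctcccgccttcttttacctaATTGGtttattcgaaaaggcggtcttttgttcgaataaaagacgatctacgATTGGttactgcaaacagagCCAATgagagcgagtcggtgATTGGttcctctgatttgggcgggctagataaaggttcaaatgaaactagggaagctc

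Of 35 measured genes of DNA replication, 6 were dip genes, namely Rfc2, Rfc4, Rfc5, Pola1, Tyms and Gins1, and 29 were neither. Without replicate 1 of day 0 the count was 2, and without replicate 4 of day 1 it was 3. The call of Gins1 was lost in 7 of the 12 fits with 1 library left out: without replicates 1 or 3 of day 0, replicates 1 or 4 of day 1, or replicates 2, 3 or 4 of day 6. Cdc6, which loads the replicative helicase, rose at each step, at 10.4 ± 1.198, 25.1 ± 0.953 and 41.5 ± 0.456 CPM at days 0, 1 and 6. The median contrast of the list was -0.19, while the median difference was 0.13 from day 0 and -0.56 from day 6, opposite in sign. Among 18 measured G1 cyclins, CDK inhibitors and related growth arrest genes, 6 were dip genes, including all 3 of the Gadd45 family. Gadd45a, a growth arrest gene that ATF4 also induces, was at 86.7, 79.8, 95.2 and 75.5 CPM in the day 0 libraries, 19.2, 23.8, 27.97 and 22.1 CPM in the day 1 libraries and 48.9, 55.9, 52.1 and 53 CPM in the day 6 libraries. Its 4 day 1 libraries stood below the rest, a difference of -1.86 (SE 0.09) from day 0 and -1.17 (SE 0.09) from day 6. Cdkn2d, an inhibitor of CDK4 and CDK6, was at 49.1 ± 2.35, 29.2 ± 1.19 and 66.9 ± 3.76 CPM.

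Hypoxia and energy genes made up the next group of dips. Of 21 measured targets of hypoxia-inducible factor (HIF), 12 were dip genes and none was a peak gene, with a median contrast of -0.70. In 11 of the 12 the day 1 libraries lay below the other 8, and Ankrd37 was the exception. Car12, a membrane carbonic anhydrase and the strongest dip under the rule for named genes, was at 13.2, 9.35, 8.57 and 10.1 CPM in the day 0 libraries, 1.297, 1.68, 0.553 and 1.54 CPM in the day 1 libraries and 36.6, 32.8, 32.8 and 31.1 CPM in the day 6 libraries. The day 1 values were under 2 CPM in all libraries, and day 6 was above day 0. The difference was -3.03 (SE 0.20) from day 0 and -4.72 (SE 0.20) from day 6 (larger adjusted p 1.01e-10). Car9, the other carbonic anhydrase of the list, was at 50.95 ± 9.305, 13.4 ± 2.64 and 37.2 ± 4.61 CPM at days 0, 1 and 6. Ero1a, an oxidase of the endoplasmic reticulum, was at 329, 316, 307 and 318 CPM in the day 0 libraries, 63.6, 74.9, 58.9 and 70.01 CPM in the day 1 libraries and 166, 165, 169 and 159 CPM in the day 6 libraries. Its difference from the nearer day was -1.30.

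Vegfa, the endothelial growth factor, was at 331 ± 13.7, 133 ± 6.98 and 233 ± 2.81 CPM at days 0, 1 and 6, and Adm, the peptide adrenomedullin, at 2.45 ± 0.866, 0.768 ± 0.0994 and 7.54 ± 1.63 CPM. Slc2a1, the glucose transporter that HIF induces in many cells, was no member: it was at 156 ± 8.54, 166 ± 7.31 and 264 ± 13.9 CPM, with an adjusted p of 0.181 between days 0 and 1.

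Glycolysis gave 8 dip genes and 1 peak gene of 20 measured, with a median contrast of -0.42. The median difference of its genes was -0.12 from day 0 and -0.76 from day 6. Pfkp, a phosphofructokinase, was at 189.8, 195, 198 and 194 CPM in the day 0 libraries, 93.7, 96.5, 109 and 107 CPM in the day 1 libraries and 254, 255, 265 and 229 CPM in the day 6 libraries. Pgk1 was at 1642 ± 92.8, 1058 ± 45.6 and 2699 ± 104 CPM at days 0, 1 and 6, Aldoa at 1429 ± 62.8, 924 ± 36.4 and 1701 ± 96.6 CPM and Tpi1 at 1056 ± 81.8, 809.7 ± 26.3 and 1692 ± 119 CPM. In these genes day 6 exceeded day 0 and the day 1 libraries lay below both. Another tested row with the symbol Aldoa differed by -1.13 from day 0 and -0.61 from day 6 and was not called. Hk1, a hexokinase, was the peak gene, at 153 ± 10.004, 201 ± 15.7 and 166 ± 8.83 CPM. Ldha, which turns pyruvate into lactate, was at 1070.5 ± 109.5, 1134 ± 44.5 and 2557 ± 132 CPM and did not differ between days 0 and 1 by the test (adjusted p 0.26).

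Nuclear genes of oxidative phosphorylation fell by less but in more of their number. Of 35 measured, 26 were dip genes and none a peak gene, with a median contrast of -0.34. In 21 of the 26 the libraries did not overlap, near the 80.4% over all dip genes. The count of dips was 18 to 24 with 1 library left out and 18 to 25 over all alternatives, below the reported count in each. Uqcrq, a subunit of complex III, was at 97.9, 86.4, 77.1 and 81.7 CPM in the day 0 libraries, 59.1, 54.3, 53.02 and 56.3 CPM in the day 1 libraries and 130.5, 149, 122 and 123 CPM in the day 6 libraries. Every day 1 library was below every other, a difference of -0.62 (SE 0.07) from day 0 and -1.23 (SE 0.07) from day 6. Sdhb, of complex II, was at 84.2 ± 7.14, 63.3 ± 3.37 and 103 ± 5.04 CPM at days 0, 1 and 6, Cox7c, of complex IV, at 153 ± 13.3, 116 ± 9.27 and 169.5 ± 7.97 CPM, and Ndufb3, of complex I, at 41.98 ± 2.46, 32.04 ± 3.76 and 47.3 ± 1.44 CPM. Of the 16 mitochondrial genome genes tested, none was a dip gene and 1, mt-Cytb, was a peak gene.

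Proteasome subunits gave 8 dip genes of 26 measured, and all 26 were lower by the day 1 contrast, with a median of -0.39. The median difference was -0.10 from day 0 and -0.69 from day 6. The count of dips was 4 to 8 with 1 library left out. It was 4 without replicate 1 of day 0 or replicates 1 or 4 of day 1, and 5 without replicate 3 of day 0, replicates 2 or 3 of day 1 or replicates 2, 3 or 4 of day 6. Psmc6, an ATPase of the 19S cap, was at 241 ± 19.9, 179 ± 2.63 and 281 ± 8.07 CPM at days 0, 1 and 6. Of 21 NRF2 targets and oxidative stress genes, 8 were dip genes. Ftl1, a ferritin chain, was at 429 ± 56.8, 228 ± 10.5 and 292 ± 16.6 CPM, and Hmox1, heme oxygenase, at 40.9 ± 5.02, 29.1 ± 3.13 and 61.7 ± 4.63 CPM. Slc7a11, the cystine transporter, is on the ATF4 list as well and varied within a day, at 79.8, 97.3, 88.7 and 76.9 CPM in the day 0 libraries, 19.5, 39.6, 35.4 and 10.8 CPM in the day 1 libraries and 30.2, 48.7, 51.3 and 59.96 CPM in the day 6 libraries. Its day 1 and day 6 ranges overlapped (larger adjusted p 0.00671).

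Of 19 circadian clock genes, 5 were dip genes and 1 a peak gene. Dbp, a clock output factor, was at 30.6, 30.9, 28.7 and 32.1 CPM in the day 0 libraries, 5.44, 6.63, 5.34 and 5.02 CPM in the day 1 libraries and 11.5, 14.3, 10.1 and 12.9 CPM in the day 6 libraries. The day 1 values were the lowest in every library, with a difference of -2.45 (SE 0.11) from day 0 and -1.12 (SE 0.11) from day 6. Nr1d2, the nuclear receptor REV-ERB beta, was at 87.3 ± 6.13, 44.02 ± 2.52 and 97.6 ± 3.05 CPM at days 0, 1 and 6, and Bhlhe40 at 109 ± 7.51, 67.4 ± 1.78 and 144 ± 3.49 CPM. The labels give no hour of harvest, so the time of day cannot be told apart from the day.

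Other dips with large differences came from several pathways. Socs2, which restrains growth hormone and cytokine receptors, was at 103, 97.6, 94.6 and 90.5 CPM in the day 0 libraries, 21.03, 22.7, 18.3 and 21.95 CPM in the day 1 libraries and 95.5, 91.6, 89.7 and 92.96 CPM in the day 6 libraries. Days 0 and 6 did not differ by the test, and day 1 lay below both in every library. The difference was -2.20 (SE 0.07) from day 0 and -2.14 (SE 0.07) from day 6 (larger adjusted p 3.76e-16). Nt5e, the surface enzyme CD73 that makes adenosine, was at 13.4 ± 1.34, 3.299 ± 0.679 and 18.5 ± 0.588 CPM at days 0, 1 and 6. Adssl1, the muscle form of adenylosuccinate synthase, was at 26.4 ± 1.84, 9.07 ± 1.65 and 34.3 ± 2.98 CPM. Il33, an alarmin cytokine, was at 43.4 ± 2.57, 23.2 ± 1.71 and 138 ± 2.67 CPM, and Fzd4, a WNT receptor, at 22.4 ± 2.04, 5.66 ± 0.436 and 9.12 ± 0.517 CPM.

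**Figure D3:**
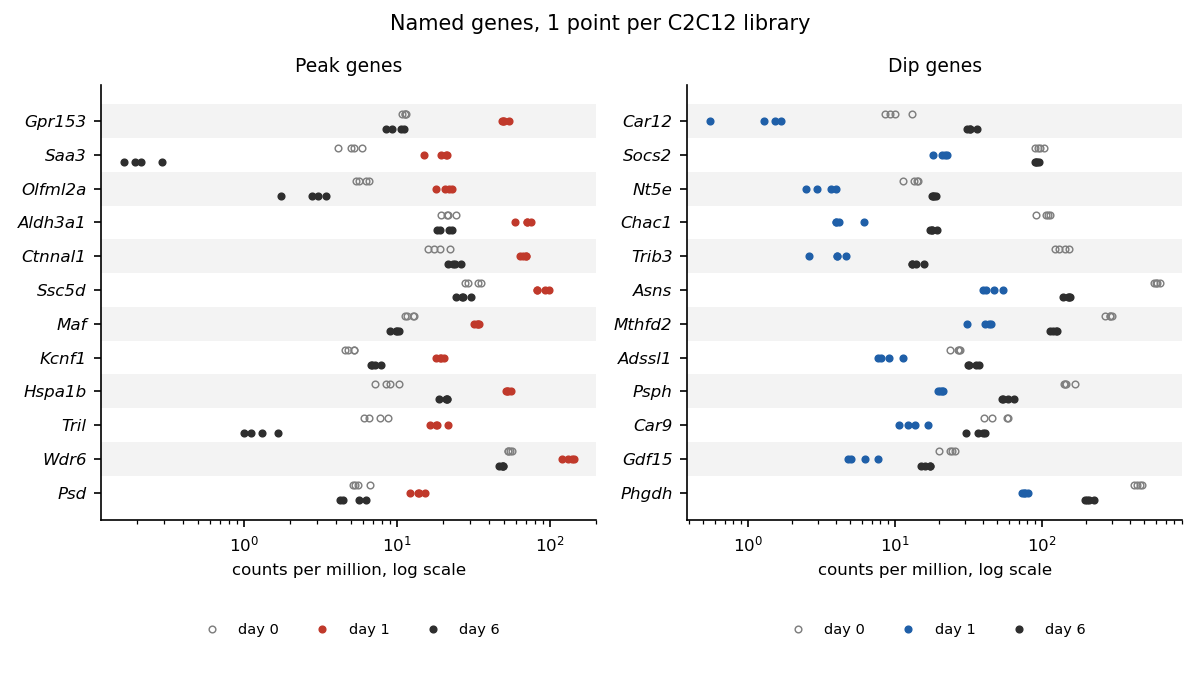
Points are CPM (log scale) of single libraries for the 12 peak genes (left) and 12 dip genes (right) chosen by the rule for named genes, with day 0 as open points, day 1 in colour and day 6 in black. In all 24 genes the 4 day 1 points lie outside the range of the other 8, which the rule required.

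Among the peak genes, the 12 named by the rule came from several gene families. Gpr153, an orphan G protein-coupled receptor, was at 11.4, 11.3, 10.9 and 11.3 CPM in the day 0 libraries, 53.8, 48.8, 49.6 and 50.2 CPM in the day 1 libraries and 10.6, 11.2, 8.48 and 9.31 CPM in the day 6 libraries. Day 1 exceeded every other library, and days 0 and 6 did not differ by the test. The difference was 2.17 (SE 0.08) from day 0 and 2.36 (SE 0.09) from day 6, with a larger adjusted p of 1.99e-14. Maf, a leucine zipper transcription factor, was at 11.6, 11.3, 12.98 and 12.8 CPM in the day 0 libraries, 34.5, 33.6, 33.7 and 31.9 CPM in the day 1 libraries and 9.87, 9.99, 8.94 and 10.4 CPM in the day 6 libraries. Its day 1 values were close to each other and above all 8 others, a difference of 1.46 (SE 0.08) from day 0 and 1.77 (SE 0.08) from day 6. Ssc5d, a soluble scavenger receptor, was at 31.7 ± 3.65, 89.2 ± 7.79 and 26.98 ± 2.51 CPM at days 0, 1 and 6, and Ctnnal1, which encodes alpha-catulin, at 18.7 ± 2.63, 67.5 ± 2.95 and 23.7 ± 2.02 CPM.

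The other named peak genes differed in their day 6 level. Saa3, an acute-phase serum amyloid, was at 5.94, 5.22, 4.14 and 5.02 CPM in the day 0 libraries, 20.9, 21.3, 19.3 and 14.95 CPM in the day 1 libraries and 0.291, 0.212, 0.164 and 0.194 CPM in the day 6 libraries. It was highest at day 1 and under 0.3 CPM in all day 6 libraries. Tril, an accessory protein of Toll-like receptor 4, was at 7.28 ± 1.18, 18.6 ± 2.13 and 1.27 ± 0.293 CPM at days 0, 1 and 6. Olfml2a, a secreted olfactomedin-domain protein, was at 5.96 ± 0.536, 20.8 ± 2.14 and 2.75 ± 0.7198 CPM. Aldh3a1, an aldehyde dehydrogenase, was at 21.6 ± 1.95, 68.9 ± 6.92 and 20.5 ± 2.201 CPM, with day 6 back at the day 0 level, and Wdr6, a WD-repeat protein, at 54.5 ± 1.38, 133 ± 10.4 and 48.4 ± 1.25 CPM. Kcnf1, a modifier subunit of potassium channels, was at 4.95 ± 0.339, 19.2 ± 0.896 and 7.18 ± 0.479 CPM, and Psd, an exchange factor for the GTPase ARF6, at 5.699 ± 0.678, 13.8 ± 1.29 and 5.16 ± 0.983 CPM.

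Hspa1b, an inducible HSP70 chaperone with a near-identical neighbour that may share its reads, was at 10.3, 7.24, 8.51 and 8.95 CPM in the day 0 libraries, 52.9, 51.5, 55.5 and 52.4 CPM in the day 1 libraries and 20.9, 21.2, 18.9 and 21.1 CPM in the day 6 libraries. Day 1 stood above day 6, and day 6 above day 0. The heat shock list was divided, with 3 peak (13.6%) and 6 dip genes (27.3%) of 22 measured, against 10.8% and 10.9% over all genes tested. Bag3, a co-chaperone of HSP70, was a peak gene at 34.01 ± 1.52, 57.9 ± 1.48 and 35.98 ± 2.36 CPM at days 0, 1 and 6, and Hspd1, the mitochondrial HSP60, a dip gene at 490.3 ± 29.5, 346 ± 13.7 and 561 ± 29.1 CPM.

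The list of smooth muscle and SRF-driven contractile genes held 8 peak genes and 1 dip gene of 17 measured, with a median contrast of 0.72. The median difference was 0.36 from day 0 and 0.93 from day 6. Acta2, smooth muscle actin, was at 1693, 1682, 1546 and 1638 CPM in the day 0 libraries, 3024, 2659, 2352 and 2736 CPM in the day 1 libraries and 1472, 1527, 1331 and 1394 CPM in the day 6 libraries. Each day 1 library was above all others, a difference of 0.72 (SE 0.06) from day 0 and 0.91 (SE 0.06) from day 6 (larger adjusted p 6.13e-09). Actins are a family of near-identical genes and may share reads. Myl9, a regulatory myosin light chain, was at 147, 147, 139.8 and 152 CPM in the day 0 libraries, 313, 272, 249 and 264 CPM in the day 1 libraries and 59.9, 57.3, 50.7 and 46.3 CPM in the day 6 libraries. It was highest at day 1 and lowest at day 6, a difference of 0.91 (SE 0.07) from day 0 and 2.36 (SE 0.08) from day 6. Flna, which crosslinks actin filaments, was at 2167 ± 285, 3221 ± 176 and 1566 ± 126 CPM at days 0, 1 and 6, and Csrp1, a LIM-domain protein of the actin cytoskeleton, at 359.96 ± 14.4, 495 ± 21.7 and 261 ± 16.4 CPM. Cnn2, Actg2, Mylk and Lmod1 were the other peak genes. They lay 0.36, 0.21, 0.36 and 0.28 above day 0 on the log2 scale, but 1.20, 2.47, 2.54 and 4.26 above day 6. The day 1 range of Actg2 overlapped that of day 0. Synpo2, a Z-disc and stress fibre protein, was the dip gene at 36.5 ± 3.77, 31.01 ± 1.31 and 55.2 ± 3.28 CPM, and its call was lost without replicates 2 or 4 of day 0 or without replicates 1, 2 or 3 of day 1.

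Of 18 measured genes in the list of myogenic regulators, 8 were peak genes and none a dip gene. The list also holds Jph2, Klhl41, Mymk and Mymx, which are not transcriptional regulators. Srf itself was at 49.5, 60.1, 51.6 and 59.3 CPM in the day 0 libraries, 81.2, 71.9, 82.5 and 77.7 CPM in the day 1 libraries and 44.9, 43.1, 42.1 and 44.8 CPM in the day 6 libraries. Day 1 was highest in each library, with a difference of 0.51 (SE 0.07) from day 0 and 0.84 (SE 0.07) from day 6. Six4, a homeodomain factor of myogenic precursors, was at 39.4 ± 3.57, 52.6 ± 3.33 and 42.5 ± 3.99 CPM at days 0, 1 and 6, and Eya1, a transcriptional coactivator, at 22.95 ± 1.5003, 30.2 ± 2.43 and 20.3 ± 3.02 CPM. Mef2d, Tcf3, Tcf12 and Jph2 were peak genes too. The MyoD family members themselves were not among them. Myod1 was at 2.897 ± 0.563, 5.98 ± 0.984 and 19.5 ± 1.97 CPM and Myog, the factor of terminal differentiation, at 3.75 ± 0.281, 13.7 ± 1.798 and 143 ± 3.99 CPM, rising at both steps. Myf5 was at 20.6, 38.1 and 35.8 CPM (means), with a contrast of 0.49 (SE 0.07) but only 0.09 between days 1 and 6. Myf6 was scarce, at 0.248, 0.117 and 0.326 CPM. None of 29 measured sarcomere genes was a peak or a dip gene, and their median difference between day 6 and day 0 was 7.31 on the log2 scale.

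Matrix genes and matrix proteases were also more often peak than dip genes, as counts of list members. Of 27 measured matrix and fibroblast genes, 7 were peak genes and 1, Thbs2, a dip gene, with a median contrast of 0.50. Fn1, fibronectin, was at 4927, 8011, 6531 and 6975 CPM in the day 0 libraries, 10750.4, 9854, 12082 and 11087 CPM in the day 1 libraries and 3416, 2654, 3143 and 3167 CPM in the day 6 libraries. Its day 1 range lay above both others, a difference of 0.73 (SE 0.10) from day 0 and 1.82 (SE 0.10) from day 6. Col12a1, a fibril-associated collagen, was at 731 ± 111, 1241 ± 79.7 and 369.5 ± 53.2 CPM at days 0, 1 and 6, Col6a3 at 1413 ± 218, 1861 ± 137 and 514 ± 54.96 CPM, and Loxl1, which crosslinks elastin, at 259 ± 10.3, 416 ± 29.7 and 137 ± 8.82 CPM. The call of Thbs2 (453 ± 48.9, 257 ± 12.7 and 292 ± 9.25 CPM) was lost without 9 of the 12 libraries in turn. The sum of the fibroblast markers, given above, is carried by Col3a1 and Col1a2, and its members differed. From day 0 to day 1 the means went from 9206 to 10593 CPM for Col3a1, from 9.91 to 157 for Dcn and from 0.0151 to 1.57 for Lum. They went from 5161 to 3374 CPM for Col1a2, from 914 to 588 for Col1a1 and from 103 to 91.4 for Pdgfra. The part of these cells in the matrix values was not tested.

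Of 24 measured metalloproteases and inhibitors, 6 were peak (25%) and 3 dip genes (12.5%). Over all genes tested the shares were 10.8% and 10.9%, so the dip share was near that of all genes. Adamts4, which cleaves aggrecan and versican, was at 26.3, 30.5, 24.4 and 27.4 CPM in the day 0 libraries, 71.9, 65.1, 77.3 and 74.5 CPM in the day 1 libraries and 39.2, 35.9, 41.2 and 38.2 CPM in the day 6 libraries. Day 1 was separate from day 6, and day 6 from day 0. Adamts1 was at 44.03 ± 3.17, 102 ± 7.68 and 50.1 ± 2.78 CPM. Mmp9, a gelatinase, was at 7.63, 10.8, 8.06 and 9.45 CPM in the day 0 libraries, 24.1, 16.98, 18.8 and 17.6 CPM in the day 1 libraries and 0, 0.303, 0 and 0 CPM in the day 6 libraries, and so was almost unread at day 6. Its peak call was lost with DESeq2 (larger adjusted p 0.165).

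Notch pathway genes gave 6 peak genes and 1 dip gene of 15 measured, with a median contrast of 0.54. Among receptors, Notch2 was at 118, 169, 155 and 152 CPM in the day 0 libraries, 233, 237, 256 and 239 CPM in the day 1 libraries and 129, 106, 114 and 116 CPM in the day 6 libraries, above all other libraries at day 1, and Notch1 was at 18.04 ± 3.24, 28.9 ± 1.93 and 17.4 ± 2.02 CPM at days 0, 1 and 6. Dtx4, a ubiquitin ligase of the pathway, was at 40.4 ± 3.75, 69.9 ± 6.69 and 29.1 ± 3.62 CPM. Maml1, Rfng and Lfng were the others. Hey1, a transcriptional target of Notch, was the dip gene at 1.82 ± 0.2704, 1.15 ± 0.243 and 8.93 ± 1.47 CPM (larger adjusted p 0.0114). That call was lost without replicate 3 of day 0 and without replicate 4 of day 1. Of the ligands, Dll1, Jag1 and Jag2 were tested and none was a member.

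Of 16 measured complement and acute-phase genes, 5 were peak genes and none a dip gene, with a median contrast of 1.17. The median difference was 0.20 from day 0 and 1.83 from day 6, so most of the contrast lay between days 1 and 6. C3, the central complement component, was at 117, 166, 169 and 152 CPM in the day 0 libraries, 327, 275, 318 and 279 CPM in the day 1 libraries and 0.194, 0.182, 0.164 and 0.09698 CPM in the day 6 libraries. It was highest at day 1 in each library and nearly absent at day 6. Il1r1, the interleukin 1 receptor, was at 134 ± 5.47, 219 ± 6.78 and 66.1 ± 2.23 CPM at days 0, 1 and 6, and C1s1 at 208 ± 11.9, 259 ± 4.43 and 68.2 ± 3.16 CPM. Among 18 chemokines and cytokines, 3 were peak (16.7%) and 4 dip genes (22.2%), against 10.8% and 10.9% over all genes tested. Ccl2, a monocyte chemokine, was at 88.8, 68.02, 70.1 and 68.1 CPM in the day 0 libraries, 167, 169, 161 and 147 CPM in the day 1 libraries and 16.4, 16.1, 13.99 and 17.1 CPM in the day 6 libraries. Day 1 lay above day 0 and far above day 6, a difference of 1.12 (SE 0.08) from day 0 and 3.34 (SE 0.09) from day 6. Il6 was a dip gene at 4.56 ± 0.656, 1.07 ± 0.325 and 1.99 ± 0.271 CPM. Of 19 genes of NF-kB and cytokine feedback, 5 were peak (26.3%) and 2 dip genes (10.5%), the latter near the share of all genes. Zc3h12a, an RNase that degrades cytokine messages, was at 21.4 ± 2.63, 35.1 ± 4.54 and 7.32 ± 0.793 CPM. Immune cell markers were near 0 at every day, as given above.

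Lipid synthesis contributed 7 peak genes of 25 measured in the cholesterol list, with no dip gene, and 7 peak and 4 dip genes of 24 in the list of fatty acid synthesis and lipid handling. The count of dips in the latter was 1 to 4 with 1 library left out. It was 1 without replicates 1 or 3 of day 1, and 2 without any single day 0 library, replicate 4 of day 1 or replicates 2 or 3 of day 6. Fasn, fatty acid synthase, was at 161, 239, 211 and 232 CPM in the day 0 libraries, 493, 435, 531 and 516 CPM in the day 1 libraries and 173, 156, 162 and 169 CPM in the day 6 libraries. Its day 1 libraries were all above 430 CPM, clear of both other days, a difference of 1.23 (SE 0.09) from day 0 and 1.58 (SE 0.09) from day 6. Cpt1a, which admits fatty acids to mitochondria, was at 89.1 ± 6.99, 162 ± 6.495 and 82.02 ± 6.19 CPM at days 0, 1 and 6, and Acly, which supplies cytosolic acetyl-CoA, at 248 ± 7.01, 408 ± 17.5 and 287 ± 10.0001 CPM. In the cholesterol list, Tm7sf2, Mvk and Mvd were at 12.6 ± 1.06, 23.3 ± 1.98 and 14.4 ± 1.23 CPM, 50.9 ± 0.9097, 67.2 ± 4.97 and 45.7 ± 0.7096 CPM and 32.3 ± 2.48, 58.4 ± 4.46 and 45.03 ± 1.803 CPM. Pparg, the adipocyte nuclear receptor, was a dip gene at 9.401 ± 0.655, 3.59 ± 0.476 and 6.02 ± 0.663 CPM. Cebpa, also among the adipocyte markers, went the other way, a peak gene at 14.8 ± 0.832, 17.4 ± 0.789 and 10.3 ± 0.838 CPM. The call of Cebpa was lost with no filter, with the replicate block and without replicate 2 of day 0.

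Among 24 immediate early genes, 5 were peak (20.8%) and 3 dip genes (12.5%). Over all genes tested the shares were 10.8% and 10.9%, so the dip share was near that of all genes. Egr3, a zinc finger factor induced by growth signals, was at 3.66, 3.95, 3.87 and 5.601 CPM in the day 0 libraries, 29.1, 32.4, 29.9 and 26.9 CPM in the day 1 libraries and 16.96, 17.6, 14.5 and 15.4 CPM in the day 6 libraries. Day 1 was above day 6 and day 6 above day 0, a difference of 2.79 (SE 0.12) from day 0 and 0.87 (SE 0.11) from day 6. Egr2 was at 4.85 ± 0.455, 19.5 ± 1.77 and 9.59 ± 1.25 CPM at days 0, 1 and 6. Of 19 p53 targets, with p53 itself among them, 4 were peak (21.1%) and 2 dip genes (10.5%), the latter near the share of all genes. The count of dips was 1 in 16 of the 19 alternatives, including without any single library of day 0 or day 1 and without replicates 2, 3 or 4 of day 6. Trp53 was at 101 ± 7.64, 142 ± 8.92 and 96.3 ± 7.89 CPM, and Zmat3, a p53-induced RNA-binding protein, at 47.6 ± 1.69, 66.5 ± 0.219 and 22.8 ± 2.502 CPM. Of 26 measured genes of IGF and growth factors, 3 were peak (11.5%) and 2 dip genes (7.69%), the peak share near that of all genes. Growth factor receptors among the peak genes were Igf1r at 39.3 ± 2.46, 59.1 ± 7.29 and 24.1 ± 1.03 CPM and Pdgfrb at 261 ± 23.5, 385 ± 16.6 and 174 ± 8.17 CPM. Of the WNT list, 6 were peak (25%) and 2 dip genes (8.33%) of 24, the latter below the share of all genes. Fzd1, a WNT receptor, was at 141 ± 9.33, 226 ± 12.5 and 74.9 ± 3.33 CPM, opposite in call to Fzd4, and Axin2, a WNT target, at 3.77 ± 0.709, 7.54 ± 0.132 and 4.83 ± 0.987 CPM. Sesn3, a FOXO target of the sestrin family, was at 116 ± 6.91, 256 ± 9.88 and 90.3 ± 5.48 CPM.

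**Figure D4:**
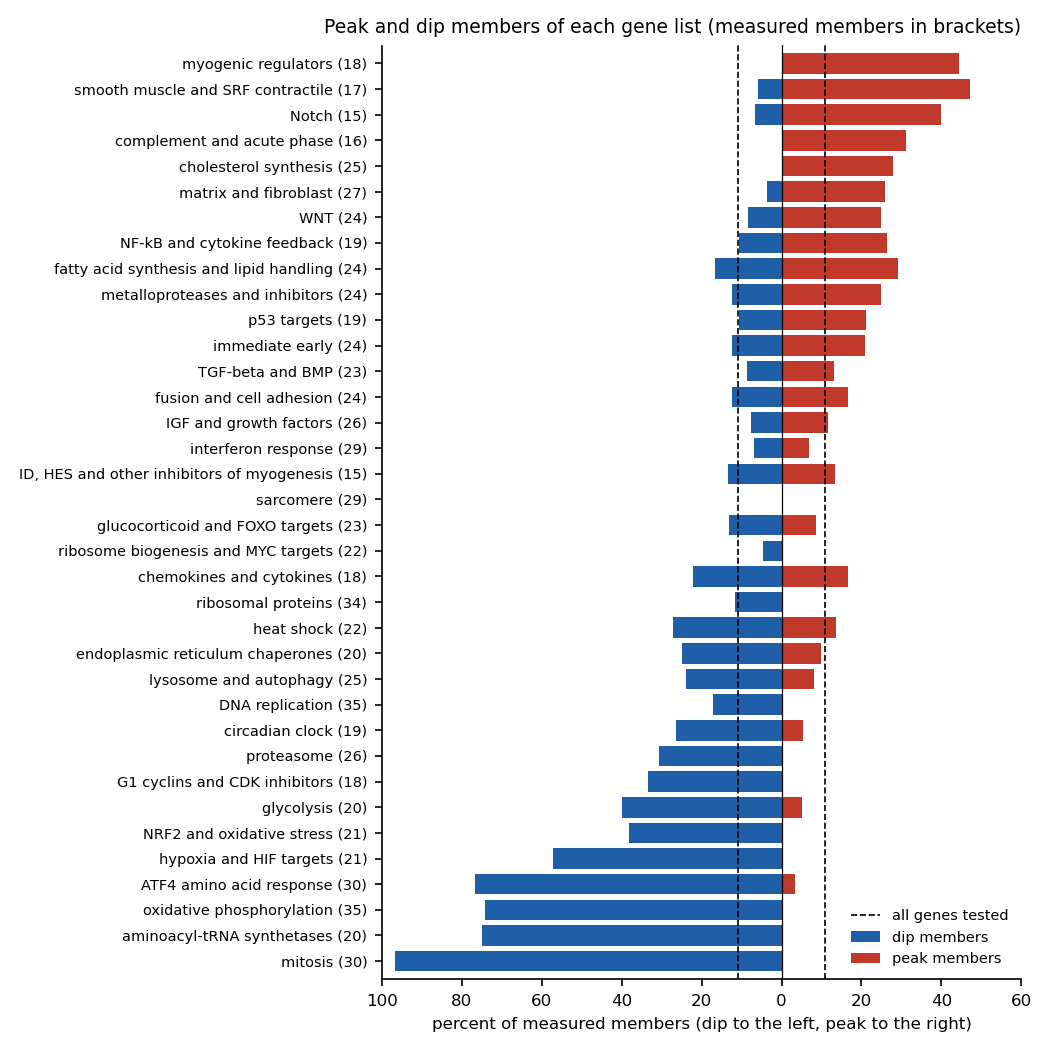
Bars give the percent of measured members of each of 36 gene lists that were peak genes (right, red) or dip genes (left, blue), with the shares over all genes tested, 10.8% and 10.9%, as dashed lines. Mitosis, the ATF4 list, aminoacyl-tRNA synthetases and oxidative phosphorylation reach furthest to the left, and smooth muscle, myogenic regulators and Notch furthest to the right.

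The same contrast can be set beside LHCN-M2, where day 1 was compared with days 0 and 12. The last days differ between the lines, and symbols were matched ignoring case, which is not an orthology table. Of 10953 matched genes tested in both lines, 978 (8.93%) were peak and 1057 (9.65%) dip genes in LHCN-M2. Of 1527 matched C2C12 peak genes, 215 (14.1%) were peak genes in LHCN-M2 and 68 (4.45%) dip genes. Of 1562 C2C12 dip genes, 303 (19.4%) dipped in LHCN-M2 and 84 (5.38%) peaked. Replicate 2 of LHCN-M2 day 0 stands apart from its group in earlier results of these data. Without it the shares were 17.6% and 6.88% for the C2C12 peak genes and 24.3% and 8.32% for the dip genes, against 12.84% peak and 13.01% dip genes over all matched genes. The contrast differed between the lines, by an interaction test over 24 libraries, in 3082 genes that were higher in C2C12 (28.1%) and 2521 that were lower (23.0%).

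Mitosis genes dipped in both lines. Of 30 matched, 29 were dip genes in C2C12 and 27 in LHCN-M2, with 27 in both, and the median contrast was -0.73 and -2.28. Aminoacyl-tRNA synthetases gave 14 and 11 dip genes of 19 matched, with 9 in both. The ATF4 list gave 21 and 9 of 28, with 8 in both. Without replicate 2 of LHCN-M2 day 0, the LHCN-M2 counts were 28, 13 and 8. Cholesterol synthesis gave 7 peak genes in C2C12 and 22 in LHCN-M2 of 24, and all 7 were among the 22.

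Of the 24 genes named by the rule, 21 were tested in both lines. Chac1, Trib3, Mthfd2 and Phgdh were dip genes in both, each with a contrast further from 0 in C2C12 (adjusted p of the difference 0.00513 or less). For Trib3 the contrast was -3.52 in C2C12 and -2.14 (SE 0.16) in LHCN-M2, a difference of -1.38 (SE 0.20). In LHCN-M2 Trib3 differed by -0.66 from day 0 and by -3.61 from day 12, against -5.17 and -1.87 (day 6) in C2C12. Chac1 differed by -0.65 and -3.95 in LHCN-M2. For Chac1, Mthfd2 and Phgdh too, the larger difference was from day 0 in C2C12 but from the last day in LHCN-M2. Asns had a contrast of -1.72 (SE 0.30) in LHCN-M2 and was not a dip gene there. Socs2 was opposite: it dipped in C2C12 (-2.17) and peaked in LHCN-M2 (1.10, SE 0.20), a difference of -3.27 (SE 0.19). Ctnnal1 peaked in C2C12 (1.68) and dipped in LHCN-M2 (-0.91, SE 0.08), a difference of 2.59 (SE 0.11). Olfml2a, Ssc5d, Maf, Kcnf1, Hspa1b and Wdr6 were peak genes in both lines. The LHCN-M2 contrast was 2.88 for Kcnf1, 0.65 for Hspa1b and 0.52 for Wdr6, and it differed from that of C2C12 in each. For Olfml2a, Ssc5d and Maf the differences were -0.08 (SE 0.15), 0.19 (SE 0.14) and -0.13 (SE 0.10). Their adjusted p-values of the edgeR interaction test were 0.67, 0.272 and 0.288, which does not show that the lines were alike.

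**Figure D5:**
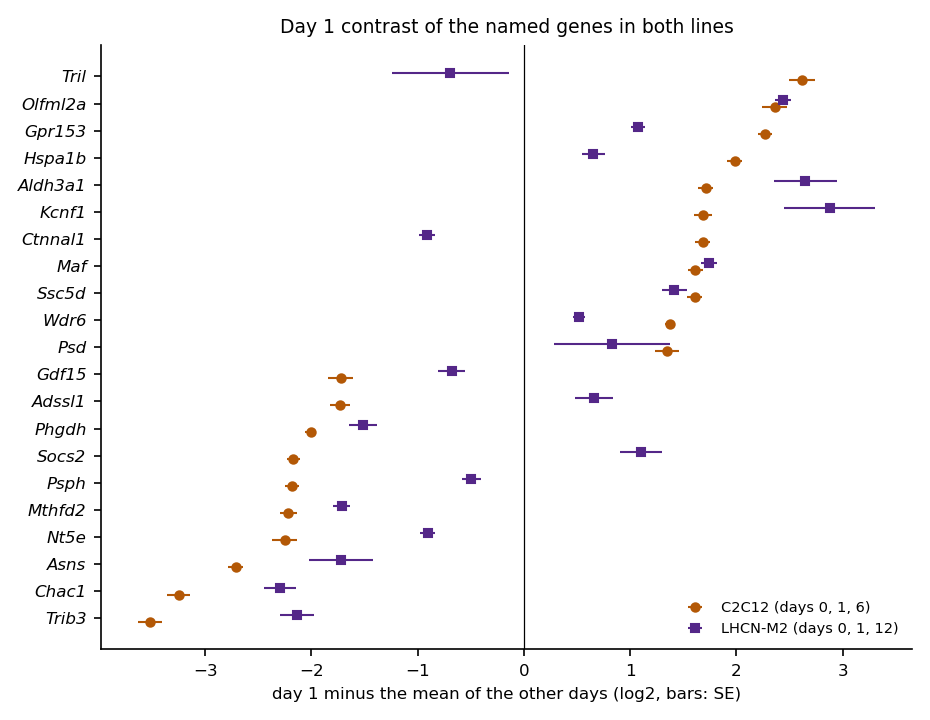
Day 1 contrast (log2, bars are SE) of 21 named genes in C2C12 (circles, against days 0 and 6) and LHCN-M2 (squares, against days 0 and 12). Socs2, Adssl1, Ctnnal1 and Tril lie on opposite sides of 0 in the lines, while Olfml2a, Maf and Ssc5d lie close together. For Tril the LHCN-M2 contrast of -0.69 (SE 0.55) did not pass the edgeR test (adjusted p 0.345), so its side of 0 is uncertain.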

How the data were processed

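The authors deposited read counts per gene. The submitters' processing notes name HISAT2 2.2.1 (an aligner), featureCounts 2.0.6 (a counter), StringTie 2.2.3 and fastp, and the builds mm10, GRCh38 and hg38. The strand setting of the counting is not given in the sources used here, so antisense, overlapping and near-identical genes are uncertain. Per the labels' protocols, mRNA was captured by poly-T and primed with random hexamers.

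The 12 C2C12 libraries (4 a day) were fitted with 1 coefficient per day in edgeR 4.0.16 (R 4.3.3): filterByExpr, TMM scaling, quasi-likelihood tests and Benjamini-Hochberg adjustment over 17065 genes, with a threshold of 0.05. CPM used TMM-scaled library sizes. The procedure was tested on simulated data. The members and lists were chosen with earlier results of these data known. The rule for named genes took the 12 peak and 12 dip genes with the largest distance to the nearer day (no overlap between libraries, at least 10 CPM, at day 1 for peaks and on both other days for dips, unique symbols that are not predicted names) and up to 4 members per list. Slc38a2, Incenp, Synpo2, Thbs2, Hk1, Atf4, Atf5, Ddit3, Cth, Pycr1, Slc6a9, Sesn2, Cebpb, Ddit4, Mki67, Ccnb1, Top2a, Cdk1, Cdc6, Slc2a1, Ldha, Myod1 and Myog were added after their values were seen. Promoter windows are from RefSeq, GRCm38.p6. Alternatives changed the scaling, filter, tool, threshold, replicate block and each library. Some members of the lists are not reported here by name.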

Additional observations from a re-analysis of the deposited data

Results flagged for a closer look

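A single library stood far from the other 3 of its day in 16 of 390 groups of 4 behind the genes named above, by Dixon's test of the gap at the 95% level. Chance alone flags about 1 group in 20, but most of these genes were named for calls that favour tight groups. The 16 of 390 therefore cannot be judged against that share. Over all genes, the chi-square per degree of freedom between day 0 libraries was 23.2 to 26.1 for pairs with replicate 1. It was 7.19 to 12.2 for the other day 0 pairs, so replicate 1 stood apart from its group. On day 0, replicate 1 was high for Ccl2 at 88.8 CPM (others 68.0 to 70.1). Replicate 4 of day 0 was high for Egr3 at 5.601 CPM (3.66 to 3.95) and for Pparg at 10.4 (8.99 to 9.14). On day 1, replicate 1 was high for Chac1 at 6.196 CPM (3.99 to 4.21) and low for Vegfa at 122 (136 to 137). Replicate 2 of day 1 was low for Acly at 382 CPM (415 to 419) and for Col12a1 at 1122 (1269 to 1292). Replicate 3 of day 1 was low for Tars at 170 CPM (181 to 182) and for Slc38a2 at 860.2 (925 to 934). On day 6, replicate 2 was high for Csrp1 at 285 CPM (250.4 to 255), for Adm at 9.99 (6.65 to 6.81), for Ldha at 2755 (2483 to 2502) and for Mmp9 at 0.303 (0 in the others). It was low for Vegfa at 229 CPM (234 to 235). Replicate 3 of day 6 was low for Hspa1b at 18.9 CPM (20.9 to 21.2) and for Loxl1 at 124 (139 to 142).

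The day 1 contrast differed between C2C12 and LHCN-M2 in 17 of the 21 named genes tested in both, by the interaction term of the edgeR fit with an adjusted p under 0.05 over 10953 genes. It was higher in C2C12 by 3.30 (log2) for Tril, 2.59 for Ctnnal1, 1.33 for Hspa1b, 1.19 for Gpr153 and 0.86 for Wdr6. The difference, C2C12 minus LHCN-M2, was -3.27 for Socs2, -2.39 for Adssl1, -1.69 for Psph, -1.38 for Trib3 and -1.35 for Nt5e. It was -1.21 for Kcnf1, -1.04 for Gdf15, -0.99 for Asns, -0.96 for Chac1, -0.94 for Aldh3a1, -0.50 for Mthfd2 and -0.49 for Phgdh. The last day was 6 in C2C12 and 12 in LHCN-M2, so line and day cannot be told apart in these differences.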

How the results depend on the processing

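The counts of genes by the day 1 contrast, of peak and of dip genes and of differences between the lines stayed within 1.5 times of the reported ones in every alternative. Peak genes numbered 1396 at an adjusted p under 0.01 and up to 2051 otherwise, and dip genes 1362 to 1879. With 1 library left out they numbered 1805 to 2051 and 1437 to 1795. DESeq2 gave 2016 and 1792. Outside the stricter filter and threshold, 1607 of the 1841 peak genes and 1169 of the 1861 dip genes kept their call in all alternatives. Peak genes were 48.9% to 57.9% of all calls, against 49.7% as reported. Of 72 counts of list members, 52 stayed within 1.5 times throughout and 20 did not. Of 179 genes picked for naming, none reversed and 16 lost their call in at least 1 alternative. Some of the 179 are not reported here by name. Genes such as Cth and Myog, added after their values were seen, had no call to lose. Differences between the lines numbered 3261 and 2332 with other scaling, 2896 and 2437 with a stricter filter, and 3404 and 3143 without replicate 2 of LHCN-M2 day 0, an alternative chosen after seeing the data.

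Replicate numbers did not pair the samples: deviations from the day means correlated at -0.0527 to 0.0386 for libraries with the same number and at -0.0403 to 0.0622 for others. With the replicate block there were 1804 peak and 1828 dip genes, of which 1772 and 1794 were among the reported ones. The block gave 4227 higher and 4503 lower genes by the contrast, and 2968 and 2431 differences between the lines.

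Depth limits genes near the filter on low counts, and values of a few CPM rest on few reads.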

Other observations

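Both groups in this paragraph were formed from gene symbols after their values were seen, and no test was made of them. Of 33 measured genes with symbols of replication-dependent histones, whose messages mostly lack a poly(A) tail and are captured in part by poly-T, 9 were dip genes and none was a peak gene, with a median contrast of -1.22. Their summed mean level was 61.4 CPM at day 0, 59.4 at day 1 and 142 at day 6, so the sum hardly differed between days 0 and 1. Of 8 measured genes with carboxylesterase (Ces) symbols, 4 were peak genes and none a dip gene, with a median contrast of 2.69. The summed mean level of the Ces genes was 24.8 CPM at day 0, 24.9 at day 1 and 7.90 at day 6: the sum of the family did not peak, unlike its 4 peak members.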
